A study of Saccharomyces cerevisiae with 4 samples.

Results

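*TIP1*, *TIR1*, *TIR2*, *TIR3*, *TIR4*, *DAN1* and *DAN4* encode mannoproteins of the yeast cell wall that are known to accumulate when cells grow without oxygen. Their expression was read in a *SCH9*-deleted wine yeast and in its parent during lipid-limited alcoholic fermentation. The 7 genes were taken by name, through the gene symbol of each array probe, from 4060 genes with a symbol among 6226 features tested. Each was matched by 1 probe, and the rule for choosing them used no measured value. The 4 arrays comprised 2 of the sch9-deleted mutant and 2 of wild-type 59A, labelled as biological replicates 1 and 2 of each strain. Strain 59A is a haploid meiotic spore of the wine yeast EC1118. In the mutant, the open reading frame of *SCH9*, a protein kinase that acts downstream of the nutrient-sensing complex TORC1, was replaced in 59A by the *loxP-KanMX-loxP* cassette, which gives resistance to G418. The mutant carries this marker and 59A does not, and how many independent transformants were used was not stated. All 4 cultures fermented anaerobically at 24 °C in synthetic medium with 230 g/L of glucose and fructose, 142 mg/L of assimilable nitrogen and 5% lipid factors (ergosterol with oleic acid). The methods give the same amount of released CO2 as the sampling point for both strains. The labels give this medium for every sample, whereas the methods also name a medium with less nitrogen for the array cultures. Controls with oxygen or with full lipid supply were not analysed here.

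The proteins belong to the Srp1/Tip1 family. They are rich in serine and alanine, carry many O-linked mannose chains, and are delivered to the cell surface on a glycosylphosphatidylinositol (GPI) anchor, from which they are transferred to the glucan of the wall. *TIP1* was named as a temperature shock-inducible gene and is also transcribed in aerobic cells, and the *TIR* genes were named for their relation to it. *TIR1* and *TIR2* also respond to cold. The *DAN* genes were named for delayed anaerobic expression. In aerobic laboratory strains the *DAN* and *TIR* genes are kept silent by repressors that include Rox1 and Mot3, and in anaerobic cells they are activated by Upc2, a sterol-sensing factor. Remodelling of the wall from the proteins Cwp1 and Cwp2 to the Dan and Tir proteins is a known mark of anaerobic yeast, and strains without *TIR1*, *TIR3* or *TIR4* fail to grow anaerobically.

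The values are log2 intensities that the authors normalised between arrays by quantiles. The array medians lay between 8.52 and 8.53. *SCH9* had log2 intensities of 5.81 and 5.67 in the mutant, against 8.72 and 8.67 in the wild type. In the mutant only 6.02% and 1.38% of the probes were dimmer, which is the floor of the signal. As a check of cell type, all 7 measured genes specific to mating type a exceeded at least 14.6% of the probes on each array and were higher in the mutant. In the wild type *STE2* had 10.02 and 9.98 and *BAR1* had 7.55 and 7.94. There *AGA2* had 7.21 and 7.44, and *ASG7*, the dimmest, had 6.59 and 6.53. Of 4 genes specific to mating type alpha 3 were also higher in the mutant, beside 14.6% of all features. *SAG1*, the alpha-agglutinin, had 10.18 and 10.23 in the mutant, against 7.81 and 7.84 in the wild type, a log FC (mutant minus wild type) of 2.38. The pheromone genes *MF(ALPHA)2* and *MF(ALPHA)1* were higher by 1.15 and 0.32 from dim signals. In the wild type these were 5.89 and 5.88 for *MF(ALPHA)2*, and 5.59 on both arrays for *MF(ALPHA)1*. The receptor gene *STE3* had a log FC of -0.0036 with at most 4.21% of the probes exceeded on any array. *MF(ALPHA)1* had a log FC of 0.30 or 0.35 without replicate 1 or 2 of the mutant. Markers of both mating types were thus among the genes higher in the mutant, and their part in the results was not tested. The difference between the 2 arrays of a strain had a standard deviation over all features of 0.135 in the mutant and of 0.236 in the wild type. Fits with 1 array left out keep 1 array of that strain. Their spread within strains then rests on the 2 arrays of the other strain and on the prior of limma. Passing or not in such a fit also follows the spread of that pair, and does not by itself show that a gene depends on the array left out.

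All 7 genes gave signals in the upper part of the range on each of the 4 arrays, in the mutant and in the wild type alike. *TIR1* was exceeded by only 12 to 22 of the 6227 probes on an array and *TIR3* by 31 to 36. *TIR2*, *TIR4* and *DAN1* exceeded between 97.7% and 99.0% of the probes. *TIP1* exceeded 97.1% and 97.5% in the mutant and 93.4% and 92.8% in the wild type, and *DAN4*, the lowest of the 7 in this respect, from 87.4% to 92.1%. None of the 7 was near the floor in either strain. These shares place a signal within the range of its array and do not rank the genes by transcript number, since probes differ in brightness. The *TIR1* signals were 0.46 to 0.65 log2 units below the brightest probe. Marks for saturated spots were not used here, and whether signals so close to the top of the range understate a difference was not tested.

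**Figure D1:**
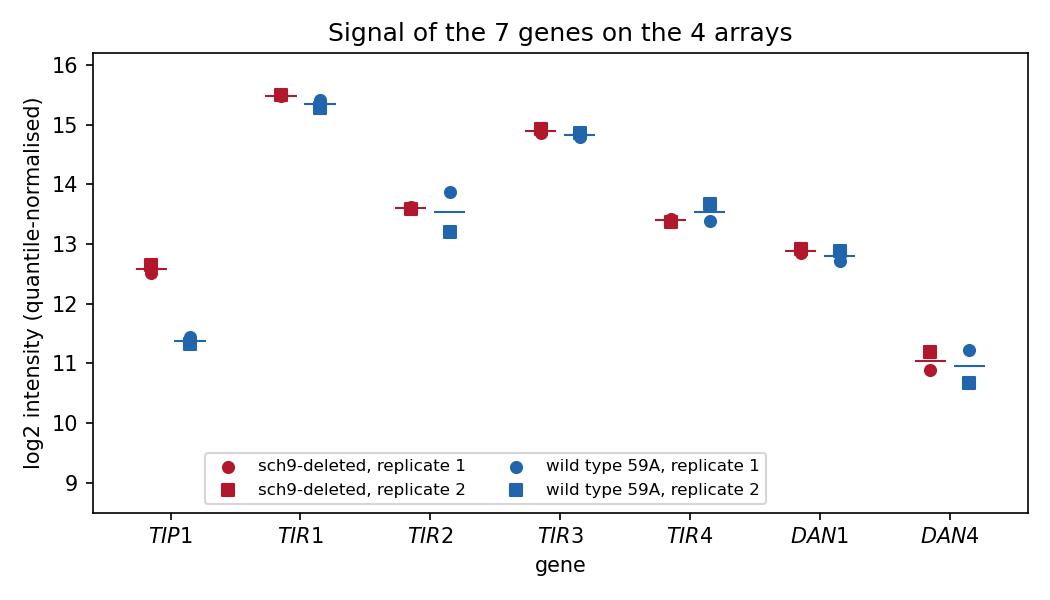
Quantile-normalised log2 intensity (vertical axis) of the 7 genes on each array, with the 2 sch9-deleted arrays to the left of the 2 wild-type arrays, circles for replicate 1, squares for replicate 2 and short lines for the strain means. The strains are far apart in *TIP1* (12.51 and 12.66 against 11.44 and 11.33) and close or overlapping in the other 6 genes, and heights of different genes are not comparable.

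*TIP1* was the member that changed. Its log2 intensities were 12.51 and 12.66 in the mutant, against 11.44 and 11.33 in the wild type. Both mutant arrays were thus more than 1 log2 unit above both wild-type arrays, and the arrays of one strain lay close together. The log FC, mutant minus wild type, was 1.20, with a standard error of 0.09 and an adjusted p of 0.00162 (limma, Benjamini-Hochberg adjustment over all features), a 2.30-fold higher signal with a 95% interval from 1.97 to 2.68. It was higher in 2 of 2 mutant arrays. The paper, from the same data, had already listed *TIP1* among the stress response genes up-regulated in the mutant. Among all features 93 had a larger log FC, which places *TIP1* at rank 94 of the 136 that were up-regulated by the criteria of the methods, an adjusted p under 0.05 and a log FC above 1. Such up-regulated features made up 2.18% of those tested. RNA came from whole cultures, so more cells with the transcript and more transcript per cell cannot be told apart. With each array left out in turn the log FC of *TIP1* lay between 1.13 and 1.27.

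The other 6 genes did not pass the test. Of the 7 genes, 1 was higher and 0 were lower, while 6 did not pass at an adjusted p under 0.05 (limma), which is 14.3% of the members called, against 26.7% of all features called in either direction, 14.6% higher and 12.1% lower. At an unadjusted p under 0.05 the count was also 1. The log FC of the 6 ranged from -0.13 to 0.14. Larger differences in either direction were found in 61.1% to 79.6% of all features. The median log FC was 0.09 over the 7 genes and 0.08 over the 6, beside -0.01 over all features. With 2 arrays against 2, an absent call does not show equal expression, and the intervals give what remains possible. Over the 6 genes the 95% intervals reached down to -0.49 and up to 0.61 on the log2 scale, between 0.711-fold and 1.53-fold.

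**Figure D2:**
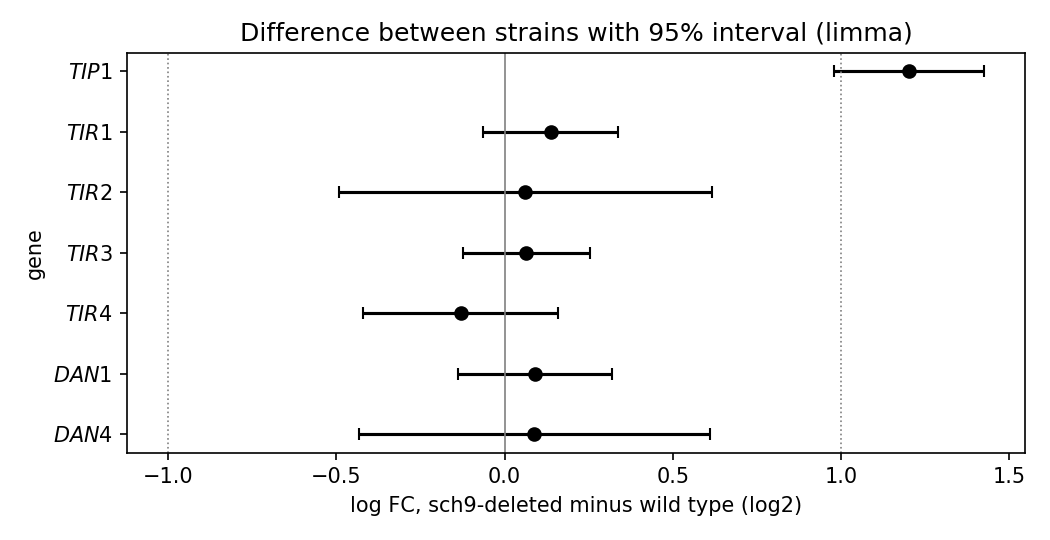
Log FC (horizontal axis, log2, sch9-deleted minus wild type) of the 7 genes with the 95% interval from limma as bars, with dotted lines at -1 and 1. *TIP1* stands at 1.20 with an interval above 0, and the intervals of the other 6 genes include 0.

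*TIR1* and *TIR3* had the narrowest spread. *TIR1* had log2 intensities of 15.47 and 15.49 in the mutant, against 15.41 and 15.29 in the wild type. Both mutant arrays were above both wild-type arrays, by a small margin, with a log FC of 0.14 (95% interval -0.06 to 0.34, adjusted p = 0.249 from limma). Separation of the arrays of this kind was found in 2 of the 7 genes, *TIP1* and *TIR1*, and in 33.7% of all features with the mutant as the higher strain. *TIR3* had 14.85 and 14.92 in the mutant and 14.79 and 14.86 in the wild type, so the strains overlapped. Its log FC was 0.06 (95% interval -0.13 to 0.25).

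*DAN1*, the best known of the *DAN* genes, had log2 intensities of 12.86 and 12.92 in the mutant, against 12.71 and 12.89 in the wild type. The strains overlapped and the log FC was 0.09 (95% interval -0.14 to 0.32, adjusted p = 0.509 from limma). *TIR4* had 13.43 and 13.37 in the mutant and 13.38 and 13.68 in the wild type. It was the only member with a lower mean in the mutant, at a log FC of -0.13 (95% interval -0.42 to 0.16, adjusted p = 0.442). Replicate 2 of the wild type was the one high array. Without it the log FC was 0.02, and without replicate 1 of the wild type it was -0.28.

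*TIR2* and *DAN4* had the widest gaps between the wild-type arrays among the 7 genes, wider than their differences between the strains. The wild-type gaps (replicate 1 minus 2) of *TIR4* (-0.29) and *DAN1* (-0.18) also exceeded their log FC in size. That of *TIR3* (-0.07) was about as large as its log FC. *TIR2* had 13.62 and 13.58 in the mutant, against 13.88 and 13.20 in the wild type. The mutant arrays lay between those of the wild type. Only 1.88% of all features differed more between the 2 wild-type arrays than this gap of 0.67. The log FC of *TIR2* over all arrays was 0.06 (95% interval -0.49 to 0.61, adjusted p = 0.868 from limma). With replicate 1 of the wild type left out it was 0.40, and with replicate 2 left out -0.28, so its direction turned with the wild-type array used. *DAN4*, which encodes the longest of the 7 proteins, had 10.88 and 11.19 in the mutant, against 11.22 and 10.67 in the wild type. Replicate 1 was the lower array of the mutant and the higher one of the wild type. The gaps were -0.30 in the mutant and 0.55 in the wild type, exceeded by 3.21% and 3.55% of the features. The log FC of *DAN4* was 0.09 (95% interval -0.43 to 0.61), and leaving out replicate 1 or 2 of the wild type gave 0.36 or -0.19.

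**Figure D3:**
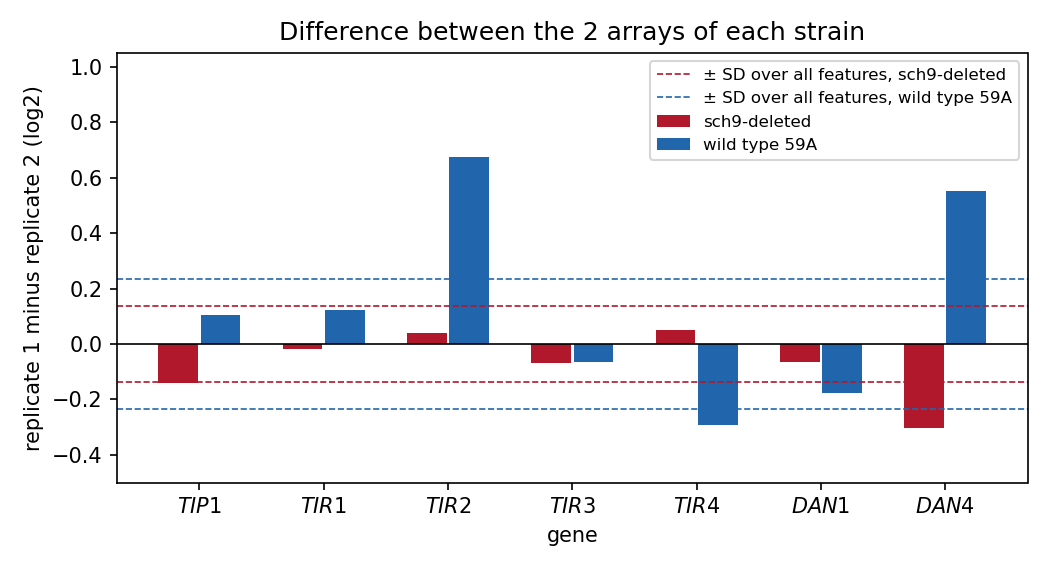
Replicate 1 minus replicate 2 (vertical axis, log2) for each gene, sch9-deleted bars left of wild-type bars, with dashed lines at plus and minus the standard deviation of this difference over all features (0.135 and 0.236). Wild-type gaps of 0.67 in *TIR2* and 0.55 in *DAN4* stand out, and *TIP1* has gaps of -0.14 and 0.11.

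**Figure D4:**
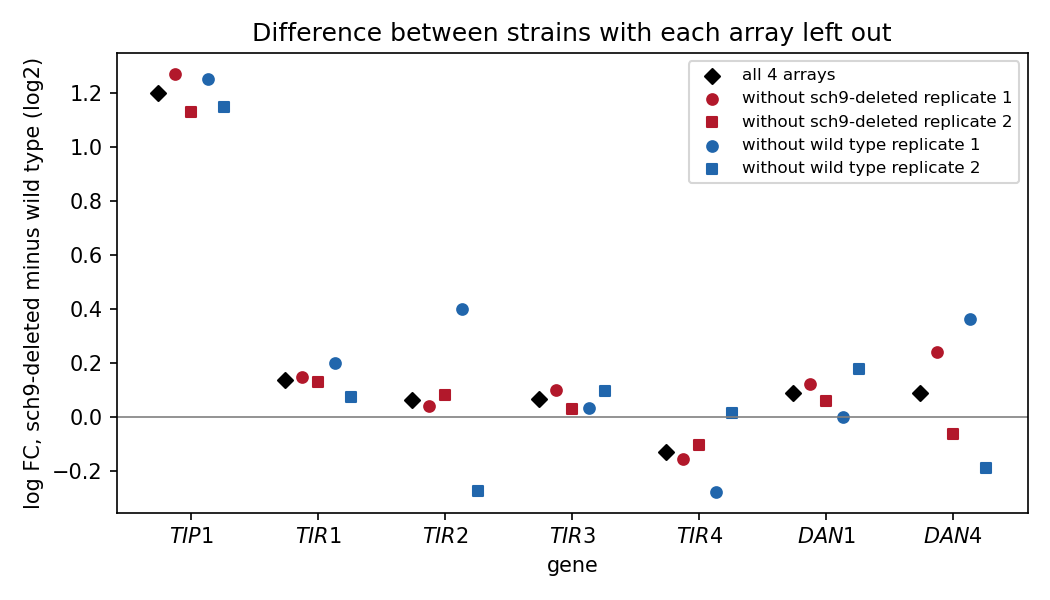
Log FC (vertical axis, log2, sch9-deleted minus wild type) of each gene over all arrays (diamonds) and with 1 array left out, sch9-deleted arrays in red and wild-type arrays in blue. *TIP1* stays between 1.13 and 1.27, while *TIR2* moves between -0.28 and 0.40 and *DAN4* between -0.19 and 0.36.

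The change of *TIP1* was set against that of its relatives within the arrays, on values centred on the mean of each gene. *TIP1* minus the mean of the other 6 was 0.53 and 0.62 in the mutant, against -0.59 and -0.56 in the wild type, a difference of 1.15 in log FC. Against single members the difference ran from 1.06 (*TIR1*) to 1.33 (*TIR4*). All 7 of these comparisons separated the strains. *TIP1* was set apart because it was the member that passed in these same values, so the separation restates its change and adds no support. Each comparison gave a two-sided exact permutation p of 0.333, the smallest that 2 arrays against 2 allow, so the design cannot place the difference under a threshold of 0.05.

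Patterns over the 4 arrays were compared by the Euclidean distance of the centred log2 values, as a description. Among the members *TIR3* and *DAN1* were nearest to each other (0.08), followed by *TIR1* and *TIR3* (0.16), and *TIR2* was nearest to *DAN4* (0.26). *TIP1* was at 1.07 or more from every other member. Outside the group, the genes nearest to *TIP1* were *FUS3*, the MAP kinase of the mating response, at 0.08 and *SKI2*, an RNA helicase of mRNA decay, at 0.09, and 30 features lay within 0.2. *FUS3* had a log FC of 1.18 and *SKI2* of 1.22. The nearest to *TIR2* were *HAP4*, the activator of respiratory genes, and *DAN2*, a further member of the family, both at 0.06, with 26 features within 0.2. *DAN2* had 14.20 and 14.24 in the mutant, against 14.50 and 13.84 in the wild type, so that its wild-type arrays also enclosed those of the mutant. The nearest to *DAN4* were *AAP1*, an aminopeptidase gene, at 0.13 and *SPT8*, a subunit of the SAGA complex, at 0.19, with 4 features within 0.2.

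The remaining members, with nearly flat values, had many features near them. *ASN2* and *AMD1* were nearest to *TIR1*, *GLN3* and *EXO84* to *TIR3*, *SKI8* and *UGX2* to *TIR4*, and *RFA2* and *FIP1* to *DAN1*, all at 0.02 or less. Within 0.2 of these members lay between 994 (*TIR4*) and 2358 (*TIR3*) features, so these names single out nothing beyond a small difference between the strains.

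By the order of genes in the RefSeq annotation of assembly R64, members lie side by side at 2 places. *DAN1* (YJR150C) and *DAN4* (YJR151C) are neighbours on chromosome X, and *TIR4* (YOR009W) and *TIR2* (YOR010C) on chromosome XV, where *AUS1*, a transporter for sterol uptake, follows *TIR2*. *AUS1* had 11.36 and 11.40 in the mutant, against 11.73 and 11.50 in the wild type, with a log FC of -0.24 (adjusted p = 0.136 from limma). Without replicate 1 or 2 of the wild type it was -0.12 or -0.35. *TIP1* (YBR067C), on chromosome II, lies between *NRG2*, a repressor gene, with a log FC of -0.11, and *BAP2*, an amino acid permease gene, with 2.03 (adjusted p = 3.1e-04 from limma). *BAP2* had 9.23 and 9.21 in the mutant, against 7.27 and 7.11 in the wild type. Both *TIP1* and this neighbour were thus up-regulated, while *NRG2* did not pass. *DOT5*, next to *TIR3* (YIL011W) on chromosome IX, had a log FC of -0.08. The neighbours of *TIR1* (YER011W), on chromosome V, were not matched to a probe by name.

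The seripauperins, or Pau proteins, are short relatives of the 7 proteins, encoded by a large and nearly identical gene family. Of 24 listed genes 9 were matched by name. None passed in limma (0 higher, 0 lower), beside 26.7% of all features called in either direction. At an unadjusted p under 0.05 there was 1, and 1 was lower once the deposited values were quantile-normalised again. The median log FC of the 9 was 0.02. *PAU4* had the largest difference, with 14.70 and 14.59 in the mutant and 14.89 and 14.95 in the wild type. Its log FC was -0.28 (adjusted p = 0.0539 from limma), and -0.31 without replicate 1 of the wild type. *PAU1* followed at -0.15. *DAN2* turned in direction with the wild-type array left out, at 0.38 without replicate 1 and at -0.28 without replicate 2. Like *TIR1*, these probes were bright on all arrays, *DAN2* being the lowest of them at 98.9% to 99.3% of the probes exceeded. The brightest of them exceeded up to 99.97%. Whether signals so close to the top of the range understate a difference was not tested here either. Near-identical members may share signal on a probe, so values of single *PAU* genes are uncertain.

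Among the known regulators, the repressor genes *MOT3* and *ROX1* were lower. Of 10 genes 1 was higher, 2 were lower and 7 did not pass (limma), beside 14.6% higher and 12.1% lower over all features. With 1 array left out the number higher ran between 0 (without either mutant array) and 3 (wild-type replicate 1 omitted). It was 2 when wild-type replicate 2 was the one omitted. *MOT3* had 9.39 and 8.84 in the mutant, against 11.24 and 10.47 in the wild type, which gave a log FC of -1.74 and a standard error of 0.30 (adjusted p = 0.0156). *ROX1* had 9.47 and 8.72 in the mutant, against 10.97 and 10.25 in the wild type, which gave -1.51 and a standard error of 0.33 (adjusted p = 0.0275). Replicate 1 was the higher array of both genes in both strains, and without replicate 2 of the mutant their log FC were -1.47 and -1.14. *SUT1*, a regulator of sterol uptake genes, was higher by 0.49 (adjusted p = 0.0138), and by 0.50 or 0.49 without replicate 1 or 2 of the mutant. The *SUT1* signal was dim, with 14.8% to 21.1% of the probes exceeded. *UPC2*, the activator of the *DAN* and *TIR* genes, had 9.17 and 9.32 in the mutant and 9.01 and 8.61 in the wild type, a log FC of 0.43 (adjusted p = 0.0874). It passed without replicate 1 of the wild type, at 0.63. Its relative *ECM22* had a log FC of 0.23, and of 0.28 without replicate 2 of the wild type. The corepressor genes *TUP1* and *CYC8* had log FC of 0.17 and -0.13.

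Other genes known to be induced at low oxygen went both ways. Of 12 genes 1 was higher, 4 were lower and 7 did not pass (limma), beside 14.6% higher and 12.1% lower over all features. The median log FC of the 12 was -0.22. *ANB1*, the anaerobic isoform of the translation factor eIF5A, fell by 0.77 (adjusted p = 0.0137), and *FET4*, a low-affinity iron transporter, by 0.70 (adjusted p = 0.00597). *COX5B*, a hypoxic subunit of cytochrome c oxidase, fell by 0.44, whereas *CYC7*, which encodes iso-2-cytochrome c, rose by 0.56. *ARE1*, a sterol acyltransferase, had a log FC of -0.24, and of -0.36 or -0.11 without replicate 1 or 2 of the wild type. Without replicate 1 or 2 of the mutant the log FC was -0.90 or -0.64 for *ANB1* and -0.75 or -0.66 for *FET4*. Those of *COX5B* (-0.45 or -0.43) and *CYC7* (0.55 or 0.57) hardly moved. The near-identical gene *HYP2* may share signal with *ANB1*.

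Of 6 other structural GPI proteins of the wall, 4 were higher, 0 lower and 2 without a call (limma). Over all features 14.6% were higher and 12.1% lower. The median log FC of the 6 was 0.58. *SPI1*, a wall protein of stationary and acid-stressed cells, had 14.81 and 14.76 in the mutant, against 13.57 and 13.85 in the wild type, or 1.07 higher in the mutant, with a standard error of 0.11 (adjusted p = 0.00437). *CWP2* had 9.86 and 9.57 in the mutant, against 9.00 and 9.06 in the wild type, a log FC of 0.68 (adjusted p = 0.0146). *SED1*, an abundant wall protein of stationary cells, rose by 0.64 and *CCW14* by 0.43. *CWP1* had a log FC of 0.53 (adjusted p = 0.104) and *CCW12* of -0.41 (adjusted p = 0.133). Without replicate 1 or 2 of the wild type, *CWP1* had 0.24 or 0.82 and *CCW12* had -0.62 or -0.20. Of the called genes *SPI1* passed with every array left out, *CWP2* did not pass without replicate 1 and *SED1* without replicate 2 of the mutant, and *CCW14* did not pass without either mutant array. Among the 7 members, the seripauperins and these 6 genes, only *TIP1*, at 1.20, and *SPI1* were above a log FC of 1. The agglutinin genes *AGA2* (3.41) and *SAG1* (2.38), read as mating type markers, had larger differences.

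Genes that act on these proteins on their way to the wall are set beside 14.6% higher and 12.1% lower over all features. Counts this small do not set them apart from those shares. Of 10 genes of O-mannosylation, 1 was higher and 0 lower (limma). *PMT6*, a protein O-mannosyltransferase, was the higher one at 0.41 (adjusted p = 0.0285), and at 0.42 or 0.41 without replicate 1 or 2 of the mutant. *KTR3* had a log FC of 0.22 and *PMT1* of 0.18. Of 11 genes of GPI attachment, GPI remodelling and transfer to the wall, 1 was higher and 0 lower. *GPI16*, a subunit of the transamidase that attaches the anchor, rose by 0.65 (adjusted p = 0.00795), and by 0.57 without replicate 2 of the mutant. *DFG5*, thought to act in the transfer to wall glucan, had a log FC of -0.38 and *GUP1*, an acyltransferase of GPI remodelling, of 0.23. Without replicate 2 of the wild type the log FC was 0.30 for *KTR3*, -0.55 for *DFG5* and 0.28 for *GUP1*. The medians of these lists were 0.15 and -0.01.

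**Figure D5:**
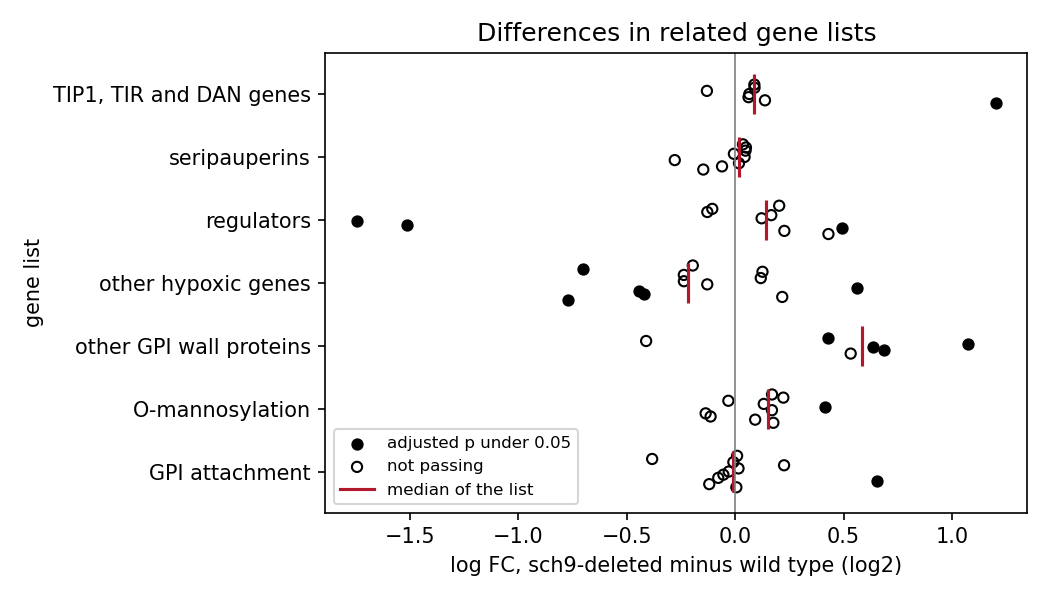
Log FC (horizontal axis, log2, sch9-deleted minus wild type) of each measured gene in 7 gene lists, filled where the adjusted p from limma was under 0.05, with the list median as a red line. Among the 7 *TIP1*, *TIR* and *DAN* genes only *TIP1* is filled, 0 of the 9 seripauperins are, and 4 of the 6 other GPI wall proteins are. Over all features 26.7% passed in either direction.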

How the data were processed

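Total RNA from 4 cultures was labelled with Cy3 and hybridised to one-colour Agilent yeast arrays, all on slide 1. The authors extracted the signals with GenePix and used limma in R (version 2.14.2 by the labels) for quantile normalisation. What they deposited are log2 intensities of 6227 probes. Nothing used here states a background correction. Of these probes 4061 carry 1 gene symbol and 2166 are unnamed here. *TIP20*, for which TIP1 is a synonym, was not taken as a member. Probes of 1 gene were averaged, and sch9-deleted minus wild type was tested by lmFit and eBayes of limma (3.58.1, under R 4.3.3; prior degrees of freedom 3.29), as in the methods of the study, with Benjamini-Hochberg adjustment over 6226 features. The fit was also run on simulated data with independent errors for each array. Since same-numbered arrays deviated together here, this does not test its p-values on these data. Lists were described by counts and medians, with no set test. Of 4060 symbols 3927 are RefSeq symbols, and RefSeq served for names and neighbours only.

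The members and lists were chosen with earlier results of these data known. Named genes are all members, up to 4 passing and 2 other genes of each list with the largest log FC, the 2 genes nearest to each member in pattern and its neighbours. *TUP1* and *CYC8* fall outside this rule and were named after their values were seen. Alternatives were quantile normalisation, median centring and scaling to the 75th percentile of the deposited values, no fold threshold, unadjusted p, dropping the 0.25 of features with the lowest intensity, eBayes with a trend or in robust form, only the brightest probe per gene, leaving out each array and the replicate number as a block. Whether replicates came from separate fermentations is not stated beyond the term biological replicate, so p-values measure the spread between these arrays. Python 3.11.15 and matplotlib 3.10.9 drew the plots.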

Additional observations from a re-analysis of the deposited data

How the results depend on the processing

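*TIP1* kept its direction and its call under all 13 alternatives, but some of these could not differ. An unadjusted p cannot lose a call, and each member has only 1 probe to choose as the brightest. Dropping dim features, a trend, the robust form and the block change the error or the adjustment and leave the log FC as it is. Where all arrays were used the log FC of *TIP1* ran from 1.19 to 1.22, with adjusted p up to 0.00164. *TIR1*, *TIR3*, *DAN1* and *DAN4* did not pass under any adjusted alternative. Their log FC lay between 0.08 and 0.20, between 0.03 and 0.10, between -0.00029 and 0.18 and between -0.19 and 0.36 with an array left out. *TIR2* lay between -0.28 and 0.40 and *TIR4* between -0.28 and 0.016, and the calls they gained without a wild-type array put the number of members higher between 1 and 2 and the number lower between 0 and 1. All other settings left 1 member higher and 0 lower.

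With the replicate number as a block, *TIP1* had a log FC of 1.20 (adjusted p = 2.42e-05) and no other member passed. Same-numbered arrays deviated together (correlation 0.531 over features), but 2 replicates per strain do not show whether the cultures were paired by number. Over all features, 912 higher and 753 lower, the block gave 1238 and 1311 and an unadjusted p 1313 and 1307. With an array left out, 179 to 1313 were higher and 58 to 1268 lower, and the 102 down-regulated features became 37 to 206. With an array left out, other GPI wall proteins numbered 2 to 5 higher (4 with all arrays) and 0 to 1 lower (0), regulators 0 to 3 higher (1) and 0 to 2 lower (2), hypoxic genes 0 to 2 higher (1) and 0 to 5 lower (4), and seripauperins 0 to 1 in either direction (0). The block gave 3 regulators higher, 1 seripauperin lower, 5 other GPI wall proteins higher, 1 gene of GPI attachment lower, and 6 low-temperature genes higher and 2 lower. Without the features of lowest intensity, 0 regulators were higher, because *SUT1*, the higher one with all features, was itself among those dropped.

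With 2 arrays per strain the precision is limited by their number. Counts with an array left out also follow the spread between the 2 arrays of the other strain. Probes near the top of the range carry no saturation mark here.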

Other observations

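*TIP1*, *TIR1* and *TIR2* are known to respond to temperature, and 11 other genes known to be induced at low temperature were measured. Of these 5 were higher in the sch9 mutant, 1 was lower and 5 did not pass (limma). The shares over all features were 14.6% higher and 12.1% lower. The list was chosen with earlier results of these data known, and its median log FC was 0.34. With 1 array left out the number higher ran between 3 (without replicate 2 of the mutant) and 7 (without replicate 2 of the wild type), and the number lower between 0 (without replicate 2 of the mutant) and 3 (without replicate 1 of the wild type). *HSP12*, which encodes a small membrane-associated heat shock protein, had 12.28 and 12.31 in the mutant, against 8.27 and 8.51 in the wild type, a log FC of 3.90. The paper had already named *HSP12* among the genes most strongly raised in the mutant, and lists it with *TIP1* under the response to stress. *TPS1*, trehalose-6-phosphate synthase, had a log FC of 0.95 (adjusted p = 0.00626) and *GSY2*, glycogen synthase, of 0.92 (adjusted p = 0.00359). *NSR1*, a nucleolar protein gene induced by cold shock, was the lower one, with 10.69 and 9.86 in the mutant, against 12.20 and 11.45 in the wild type. Its log FC was -1.55 (adjusted p = 0.0309), and -1.14 without replicate 2 of the mutant. *TPS2* had a log FC of 0.34 and *LOT6* of -0.27, and neither passed with all arrays. Without replicate 2 of the wild type *TPS2* had 0.47, and without replicate 1 *LOT6* had -0.38. The list thus held genes in both directions, with *TIP1* beside those that were higher and *TIR1* and *TIR2* among the genes that did not pass with all arrays.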
